A study of Mus musculus with 18 samples.

Results

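Choroid plexus and ependymal transcripts were followed in RNA sequencing counts of microglia from the mouse striatum through 6 genes taken by symbol out of 55536 in the count table. They were Ttr, Folr1, Kl and Prlr, which are strongly expressed by the choroid plexus epithelium, and Foxj1 and Tmem212, which mark ciliated ependymal cells. All 6 were found in GENCODE M21, which holds every identifier of the table. Microglia were pulled down by magnetic beads that bind CD11b, which sits on the surface of myeloid cells, in 4 groups of C57BL/6 mice that the study's text calls adult. The groups were WT (n = 5), Tyrobp-KO (n = 3), which lacks both copies of the microglial adaptor gene Tyrobp, Q175 (n = 5), and Q175;Tyrobp-KO (n = 5), which combines both changes. Q175 is a heterozygous knock-in of human HTT exon 1 with a long CAG repeat at the mouse Htt locus, carried by every cell type and used as a model of Huntington's disease. The Tyrobp deletion is likewise in all cells of the animal. The labels give 2 striata for each sample and the methods give 1. By the labels, 1 WT, 2 Tyrobp-KO, 4 Q175 and 2 Q175;Tyrobp-KO samples came from females.

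The choroid plexus is a sheet of epithelium inside the brain ventricles that secretes cerebrospinal fluid. It makes transthyretin (Ttr), the carrier of thyroid hormone and of the retinol-binding protein, carries folate into the fluid through folate receptor alpha (Folr1), and is the main brain source of klotho (Kl), a co-receptor for FGF23 that is also shed as a soluble protein. It also bears the prolactin receptor (Prlr), a cytokine receptor that signals through JAK2 and STAT5. Ependymal cells line the ventricle walls and beat motile cilia, whose genes are switched on by the forkhead transcription factor FOXJ1. TMEM212 is a membrane protein found in these ciliated cells. The striatum borders the lateral ventricle, so both cell types lie next to the dissected tissue, and neither carries CD11b.

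Upstream sequence was available in the RefSeq promoter table (GRCm38.p6) for 3 of the 6 genes. It is shown for Kl and Prlr, which were both highest in the same 3 libraries, and for Tmem212, whose level did not follow theirs. Each is the 250 bases before a transcription start, 5′ to 3′ on the gene's strand, at chr5:150952357-150952606 (+), at chr15:10176988-10177237 (+), the most upstream of 3 Prlr starts, and at chr3:27896369-27896618 (-). Capitals mark the forkhead core TGTTTA or its reverse TAAACA, which FOXJ1 and other forkhead factors can bind.
Kl: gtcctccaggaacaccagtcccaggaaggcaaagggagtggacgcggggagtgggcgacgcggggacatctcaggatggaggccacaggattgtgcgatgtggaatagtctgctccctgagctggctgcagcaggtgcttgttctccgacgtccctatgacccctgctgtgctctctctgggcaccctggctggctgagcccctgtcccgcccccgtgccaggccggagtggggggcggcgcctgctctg
Prlr: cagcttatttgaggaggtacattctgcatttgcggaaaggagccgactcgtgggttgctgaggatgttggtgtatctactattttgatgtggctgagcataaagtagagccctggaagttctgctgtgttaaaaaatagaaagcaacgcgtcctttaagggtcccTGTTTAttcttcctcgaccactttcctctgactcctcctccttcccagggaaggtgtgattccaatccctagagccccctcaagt
Tmem212: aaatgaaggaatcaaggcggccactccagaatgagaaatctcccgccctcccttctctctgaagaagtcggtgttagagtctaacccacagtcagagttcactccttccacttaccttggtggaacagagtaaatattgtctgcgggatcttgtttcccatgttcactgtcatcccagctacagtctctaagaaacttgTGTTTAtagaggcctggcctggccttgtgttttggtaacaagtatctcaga
The forkhead core stood 85 bases before the first Prlr start and 51 bases before the Tmem212 start, counted from its first base, and was not among the letters of the Kl window. It also occurred at 215 and 137 bases before the second Prlr start. Of all 32851 promoters in the table, 3952 held the forkhead core on either strand in the same window, as did 8 of 36 promoters (22.2%) of the motile cilia genes described further on and 3 of 20 promoters of the choroid plexus genes. The core TAATCC (reverse GGATTA), bound by OTX2, a homeodomain factor of the choroid plexus, was found in 6.25% of all promoters and in none of the 5 promoter windows of these 3 genes. The motifs do not overlap one another, and a match is a description of the letters only.

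Total counts ranged from 11260410 to 29771983 over the 18 libraries. Tyrobp was between 196 and 475 CPM (read counts scaled to a common library size with edgeR's TMM factors) in WT, between 213 and 368 in Q175, between 17.5 and 21.3 in Tyrobp-KO and between 9.90 and 14.6 in Q175;Tyrobp-KO, so no library went against its Tyrobp label. All 20 markers of microglia reached 1 CPM, with a summed level between 19336 and 34079 CPM in each library. A sum of 15 astrocyte markers ran from 679 to 6475 CPM and one of 10 oligodendrocyte markers from 1752 to 6398 CPM, and both lists were detected in full in every library. In bulk RNA, fewer cells of a type and less RNA per cell cannot be told apart. Nothing in the labels says that the samples of a group came from separate animals, so p-values measure the spread between these samples.

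The genes lie on different chromosomes in GRCm38, and 2 of them overlap another annotated gene. Ttr spans positions 20665280 to 20674321 of chromosome 18 on the plus strand. Kl spans 150952610 to 150993820 of chromosome 5, also on the plus strand, and overlaps no other annotated gene. Folr1 (chromosome 7, 101858330 to 101870790, minus strand) overlaps Anapc15 on the opposite strand, and the libraries were non-directional, so reads in the overlap cannot be assigned by strand. Anapc15 was between 12.02 and 31.6 CPM in every library and lowest in Q175 replicate 4, where Folr1 was at 7.09 CPM, and 4 libraries had no Folr1 read. Prlr (chromosome 15, 10177238 to 10349180, plus strand) overlaps Gm21973 on the same strand, which had no reads in any library. Foxj1 lies on the minus strand of chromosome 11 (116330700 to 116335400) and Tmem212 on the minus strand of chromosome 3 (27866066 to 27896368).

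Ttr was the most abundant of the 6 per kilobase of exon, and its level varied widely between libraries of the same genotype. Over all 18 libraries the median was 14.8 CPM per kb for Ttr, 1.24 for Foxj1, 0.0848 for Kl, 0.0748 for Folr1, 0.0473 for Prlr and 0 for Tmem212. In WT, Ttr stood at 89.4, 0.537, 2.08, 10.2 and 35.5 CPM in replicates 1, 2, 6, 7 and 8. In Tyrobp-KO it stood at 6.32, 0.309 and 5.49 CPM in replicates 15, 19 and 20. In Q175 it was 1262 and 1366 CPM in replicates 3 and 4, and 2.27, 15.97 and 12.99 CPM in replicates 9, 14 and 17. In Q175;Tyrobp-KO it was 32.0, 393, 34.3, 27.6 and 19.2 CPM in replicates 5, 11, 12, 13 and 16. Every Q175;Tyrobp-KO library lay above every Tyrobp-KO library, and all other pairs of groups overlapped. That pair was not compared by a test, and the share of all genes that separate it was not counted, so no difference is read from it. Above the rest stood 3 libraries: Q175 replicates 3 and 4, both female, and Q175;Tyrobp-KO replicate 11, a male. The lowest of these 3 was 4.40 times the highest of the other 15, WT replicate 1. Transthyretin reads made up 0.123% of all counts in Q175 replicate 4 (Wilson 95% interval 0.121% to 0.125%), while in Tyrobp-KO replicate 19 there were 7 reads in 20008167. Such intervals cover counting error only, since reads of amplified cDNA are not independent molecules.

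The order of the groups by Ttr depended on how each was summarised. By the mean it was Q175 (531.9 ± 715 CPM, SD, n = 5), then Q175;Tyrobp-KO (101 ± 163, n = 5), WT (27.5 ± 37.3, n = 5) and Tyrobp-KO (4.04 ± 3.26, n = 3). By the median Q175;Tyrobp-KO came first with 32.0 CPM, followed by Q175 with 15.97, WT with 10.2 and Tyrobp-KO with 5.49. In the 3 groups of 5 the SD was larger than the mean, so no pair of neighbours in either order differed by more than the spread between libraries.

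**Figure D1:**
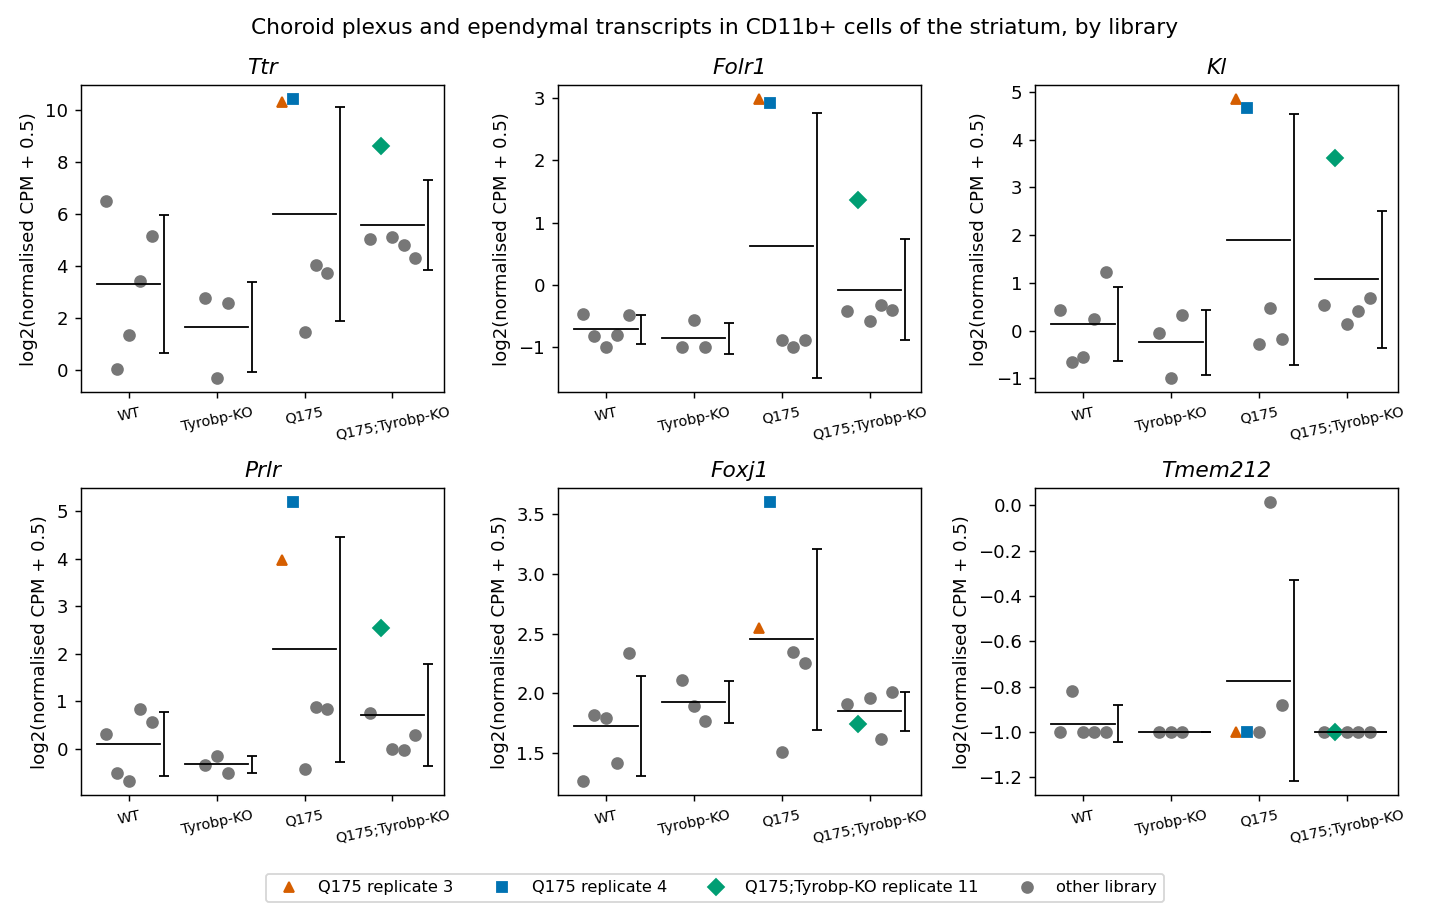
Level of each of the 6 transcripts in every library, as log2(normalised CPM + 0.5) on the vertical axis, by genotype on the horizontal axis. Points are libraries, the horizontal line is the group mean and the bar beside it is 1 SD. The triangle, square and diamond mark Q175 replicates 3 and 4 and Q175;Tyrobp-KO replicate 11, which are the 3 highest libraries for Ttr, Folr1, Kl and Prlr but not for Foxj1 or Tmem212.

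Folr1, Kl and Prlr were highest in the same 3 libraries. Folr1 was at 7.43, 7.09 and 2.08 CPM in Q175 replicates 3 and 4 and Q175;Tyrobp-KO replicate 11, from 99, 72 and 48 reads. In the rest of the Q175 group, replicates 9, 14 and 17, it was at 0.0398, 0 and 0.0426 CPM, and in Q175;Tyrobp-KO replicates 5, 12, 13 and 16 at 0.251, 0.167, 0.299 and 0.255 CPM. In WT replicates 1, 2, 6, 7 and 8 it was at 0.224, 0.0671, 0, 0.0751 and 0.217 CPM, and in Tyrobp-KO it had reads in replicate 19 alone (0.177 CPM). None of the 15 other libraries had more than 6 reads on the folate receptor gene, so a value among them rests on very few reads. The lowest of the 3 libraries was 6.95 times the highest of the others.

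Kl stood at 28.4, 24.8 and 11.7 CPM in Q175 replicates 3 and 4 and Q175;Tyrobp-KO replicate 11. Elsewhere in Q175 it was 0.318, 0.894 and 0.383 CPM in replicates 9, 14 and 17, and in Q175;Tyrobp-KO it was 0.940, 0.600, 0.836 and 1.10 CPM in replicates 5, 12, 13 and 16. In WT replicates 1, 2, 6, 7 and 8 it was 0.840, 0.134, 0.178, 0.676 and 1.84 CPM, and in Tyrobp-KO replicates 15, 19 and 20 it was 0.464, 0 and 0.746 CPM. Klotho thus gave the same split as transthyretin, with a 6.34-fold step between the third and the fourth library, WT replicate 8. The groups overlapped once these 3 libraries were set aside.

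Prlr reached 15.2 CPM in Q175 replicate 3, 36.3 in replicate 4 and 5.32 in Q175;Tyrobp-KO replicate 11. The other Q175 libraries, replicates 9, 14 and 17, had 0.239, 1.34 and 1.28 CPM, and Q175;Tyrobp-KO replicates 5, 12, 13 and 16 had 1.19, 0.50, 0.478 and 0.722 CPM. WT replicates 1, 2, 6, 7 and 8 had 0.728, 0.201, 0.119, 1.28 and 0.975 CPM, and Tyrobp-KO replicates 15, 19 and 20 had 0.290, 0.398 and 0.203 CPM. Prlr was more than 2 times as high in Q175 replicate 4 as in replicate 3, whereas Ttr, Folr1 and Kl were similar in both.

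Within the 3 libraries the transcripts kept similar but not equal proportions. There were 170, 193 and 190 Ttr reads for each Folr1 read in Q175 replicate 3, Q175 replicate 4 and Q175;Tyrobp-KO replicate 11. For each Kl read there were 44.5, 55.03 and 33.7 Ttr reads, and for each Prlr read 83.2, 37.7 and 74.0. These ratios compare reads of genes of different length and are meaningful only between libraries.

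**Figure D2:**
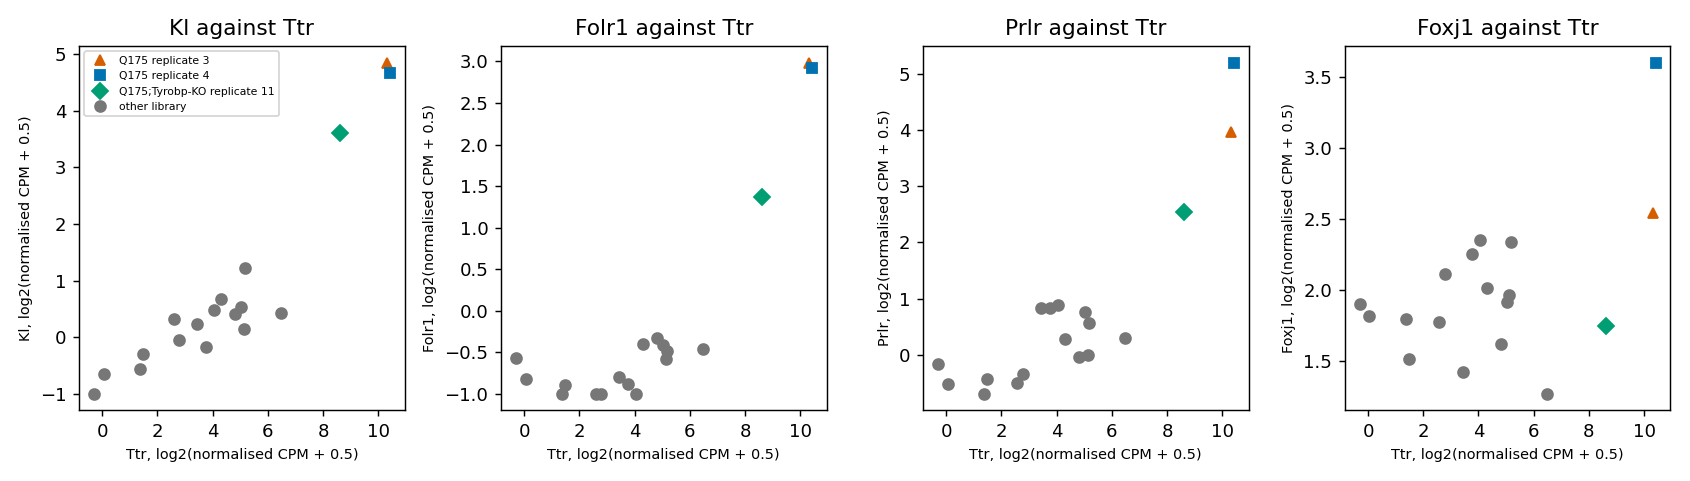
Kl, Folr1, Prlr and Foxj1 (vertical axes) against Ttr (horizontal axes) in the 18 libraries, all as log2(normalised CPM + 0.5). Each point is a library. Q175 replicates 3 and 4 (triangle, square) and Q175;Tyrobp-KO replicate 11 (diamond) form a separate cluster for Kl, Folr1 and Prlr, whereas Foxj1 stands high in Q175 replicate 4 and lies at 2.85 CPM in Q175;Tyrobp-KO replicate 11, within the range of the other libraries.

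Foxj1, the forkhead regulator of motile cilia, had a different pattern. It was detected in all 18 libraries and stood at 1.90, 3.02, 2.97, 2.18 and 4.55 CPM in WT replicates 1, 2, 6, 7 and 8. In Tyrobp-KO replicates 15, 19 and 20 it was 3.83, 3.23 and 2.92 CPM, and in Q175;Tyrobp-KO replicates 5, 11, 12, 13 and 16 it was 3.26, 2.85, 3.40, 2.57 and 3.53 CPM. In Q175 replicates 3, 4, 9, 14 and 17 it was 5.33, 11.6, 2.35, 4.60 and 4.26 CPM. Only Q175 replicates 3 and 4 exceeded the highest WT library by more than 0.5 CPM, and Q175;Tyrobp-KO replicate 11 was the second lowest of its group. The gene lies less than 1 kb downstream of Rnf157 on the same strand, and a part of Rnf157 reads in its low counts was not tested.

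Tmem212 was close to absent. It had 8 reads in Q175 replicate 14 (0.511 CPM), 1 read in Q175 replicate 17, 1 read in WT replicate 2 and none in the other 15 libraries, which include the 3 with the most Ttr. With fewer than 1 CPM in every library it entered only the edgeR fits without a filter on low counts, whose values for it are not reported here. Exact permutation tests, 2-sided, gave it p-values of 0.722 in Q175 against WT, 0.444 in Q175;Tyrobp-KO against Q175 and 1 in Tyrobp-KO against WT. A count of 0 allows up to 3 reads in a library.

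The between-library spread of the choroid plexus transcripts was among the widest in the data. Their SD within groups, on the log2(CPM + 0.5) scale, was 2.85 for Ttr, 1.67 for Kl, 1.44 for Prlr and 1.23 for Folr1, which ranked 6th, 11th, 19th and 71st from the top among 18613 genes with at least 1 CPM in any library. The median of these genes was 0.39. Foxj1, with 0.47, ranked 6317th.

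A list of 20 further genes of the choroid plexus epithelium followed the same libraries. Q175 replicates 3 and 4 and Q175;Tyrobp-KO replicate 11 were the 3 highest libraries for 15 of the 20 genes (75.0%), compared with 45 of all 18613 genes (0.242%), in which 4 of the 6 transcripts described here are counted. Both shares are over genes with 1 CPM in any library, and the filter favoured this outcome. Most of the 15 genes passed it only through these 3 libraries: Aqp1, Sostdc1, Otx2, Kcne2, Cldn2, Slc4a5, Calml4, Slc13a4, 1500015O10Rik and Lmx1a. Kcne2, Otx2 and Cldn2, for example, were at most 0.376, 0.676 and 0.728 CPM elsewhere. Only 8 of the 20 genes passed the filter without the 3 libraries. Of those 8, Clic6, Kcnj13, F5, Car12 and Tmem72 had their 3 highest levels there, and Trpv4, Msx1 and Col9a3 did not. The list's most abundant genes were Col9a3, a collagen chain, Trpv4, a cation channel, Car12, a carbonic anhydrase, and Clic6, a chloride channel protein. Car12 was at 15.8, 17.1 and 6.01 CPM in the 3 libraries and between 0.426 and 5.64 CPM in the others, and Clic6 at 13.3, 17.8 and 4.06 CPM against at most 1.80. Col9a3 and Trpv4, which other cells also express, were highest in Q175 replicate 4 alone (142 and 25.4 CPM) while Q175;Tyrobp-KO replicate 11 had 28.4 CPM of Col9a3, within the range of the other libraries, and 4.93 CPM of Trpv4, the lowest of all 18. The summed list was at 162, 342 and 71.8 CPM in the 3 libraries and between 25.4 and 61.9 CPM in the other 15. No gene in the marker lists of microglia, astrocytes, neurons, oligodendrocytes, their precursors, endothelial, mural, fibroblast, border macrophage or blood myeloid cells had its 3 highest levels there. Fibroblast and meningeal markers summed to 11.7, 23.4 and 6.53 CPM in the 3 libraries and to between 4.70 and 15.4 CPM in the others, and mural markers to 42.7, 83.2 and 26.8 CPM against 20.2 to 82.3 CPM. Both lists were highest in Q175 replicate 4, and their part in the choroid plexus transcripts was not tested.

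The genes most like each transcript over the 18 libraries were mostly of the same tissue, as a description that rests on the 3 libraries. Likeness was the Pearson correlation of log2(CPM + 0.5) among 17359 genes. For Ttr the closest were Kl (r = 0.921), Slc2a12, a sugar transporter (0.903), Kcnj13, a potassium channel (0.890), Cldn2, a claudin of leaky epithelia (0.877), and Prlr (0.869). Folr1 was closest to Kcne2, a potassium channel subunit (0.986), then to Mfrp, Kcnj13, Kl and Cldn2, with r of at least 0.951. For Kl the list was 1500015O10Rik (0.964), Folr1, Kcne2, Mfrp and Kcnj13. Prlr was closest to Otx2, the homeodomain factor (0.959), followed by Mfrp, Kcne2, Calml4 and Tmem72. Otx2 itself was at 6.00, 10.8 and 1.43 CPM in Q175 replicates 3 and 4 and Q175;Tyrobp-KO replicate 11 and at no more than 0.676 CPM elsewhere. Over the 15 other libraries these correlations were lower, 0.839 for Ttr with Kl and between 0.277 and 0.723 for the rest. Foxj1 had looser neighbours, A2m (0.780), Epn3 (0.775), Tmem108 (0.754), Sostdc1 (0.752) and Npr3 (0.743), and those of Tmem212 (Rap2b, Ndn, Nudt19, Gfap and Neurl1b, at most 0.799) rest on its 10 reads.

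Markers of motile cilia were compared with the choroid plexus transcripts by library. Of 34 genes of the ciliary axoneme and its assembly, 17 reached 1 CPM in any library, and for none of the 17 were the same 3 libraries the highest. This filter used CPM by total counts, without TMM factors. Mlf1, at 1.08 CPM in Q175 replicate 4 after TMM scaling, did not pass it. Several of the defining ependymal transcripts were at or near 0: Fam183b had reads in 2 libraries and never exceeded 0.0884 CPM, 1700012B09Rik stayed at or below 0.10 CPM, Mia at or below 0.15 and Ccdc153 at or below 0.442. Other cilia genes were readily detected: every gene of the list had a read somewhere and 12 had reads in all 18 libraries. Of the genes that did not pass the filter, Pifo, chosen after its values were seen, followed the choroid plexus pattern. It was at 0.375, 0.887 and 0.303 CPM in Q175 replicates 3 and 4 and Q175;Tyrobp-KO replicate 11 and at no more than 0.108 CPM elsewhere. Rsph1 and Mlf1, chosen likewise, did so in Q175 replicates 3 and 4 only. Rsph1 was at 0.525, 0.887 and 0.0865 CPM against at most 0.271, and Mlf1 at 0.450, 1.08 and 0.0865 CPM against at most 0.319. Rsph4a, Dynlrb2, Dnali1 and Ccdc113 were highest in Q175 replicate 4, while replicate 3 stayed within the range of the other libraries. The remaining genes that did not pass were highest outside the 3 libraries: Spag17, Meig1, Armc4, Stoml3, Ccdc153, Fam183b, 1700012B09Rik, Tekt1, Enkur and Mia. These levels did not settle the ependymal label of Foxj1 and Tmem212. Tmem212 had 10 reads in all, and none of the 5 genes closest to Foxj1 was on the cilia list. Among those 5, Sostdc1 was on the choroid plexus list, and both Sostdc1 and Epn3 had their highest levels in the 3 libraries. The list's most abundant genes, Spef2, Drc1, Ccdc39 and Cfap54, were each highest in Q175 replicate 4, at 11.4, 11.3, 11.3 and 7.39 CPM.

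Q175 replicate 4 was the single highest library for 10 of the 17 cilia genes (58.8%), for 4 of 7 regulators of multiciliated cells (57.1%) and for 2103 of all 18613 genes (11.3%). A gene entered each of these counts on reaching 1 CPM in any library. Cfap43, Ak7, Gmnc, Trp73 and Ccno reached it in Q175 replicate 4 alone, so for them the outcome was fixed by the filter. Chosen after their values were seen, Dnah6 and Cfap44, which encode axonemal proteins, were at 17.05 and 13.6 CPM there and at no more than 2.73 and 3.62 CPM in any other library. Gmnc and Trp73, which act upstream of Foxj1 in multiciliated cells, were at 2.66 and 4.14 CPM there and at no more than 0.300 and 0.675 CPM elsewhere. This library also had the smallest total, 11260410 counts, and the lowest summed level of microglia markers, 19336 CPM. The part of either in these levels was not tested.

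**Figure D3:**
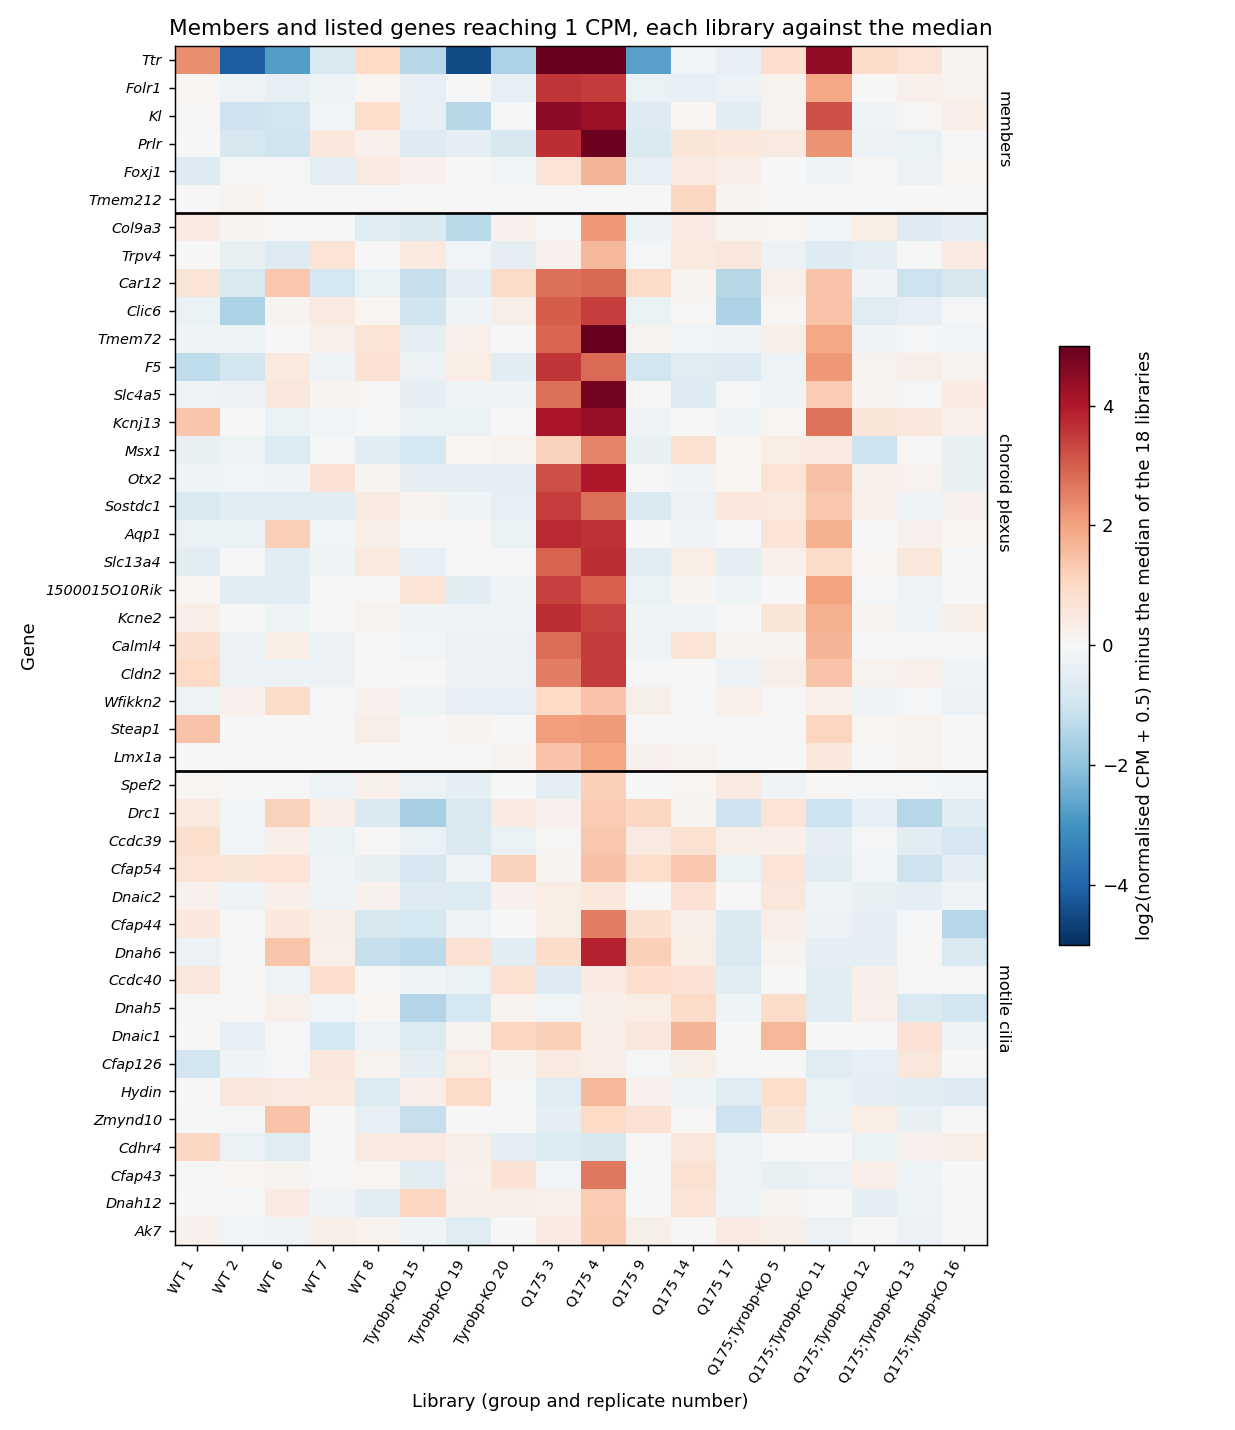
Level in each of the 18 libraries (columns, by group and replicate number) of the 6 transcripts and of the listed choroid plexus (20) and motile cilia (17) genes that reached 1 CPM by total counts (rows). Colour is log2(normalised CPM + 0.5) minus the gene's median over the 18 libraries, red above and blue below it, with the scale ending at 5 in either direction. Q175 replicates 3 and 4 and Q175;Tyrobp-KO replicate 11 stand out for the choroid plexus genes, and Q175 replicate 4 alone for several cilia genes.

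Q175 against WT asked whether the Huntington's disease allele changed these transcripts. The group means of the choroid plexus transcripts were higher in Q175, but no transcript was called at a false discovery rate (FDR) of 0.1 by edgeR's quasi-likelihood test, which called 0% of 18266 genes tested. The log2 fold change was 4.25 ± 1.65 (SE) for Ttr, 4.46 ± 1.48 for Folr1, 3.83 ± 1.22 for Kl, 3.99 ± 1.14 for Prlr and 0.93 ± 0.39 for Foxj1 (edgeR, SE derived from the F statistic, n = 5 and 5). Each had an unadjusted edgeR p below 0.05, as had 1140 genes in all, and Benjamini-Hochberg adjusted p-values between 0.365 and 0.706. DESeq2's Wald test called Prlr alone among them (adjusted p = 0.0627) and 1.28% of all genes. In exact permutation tests of the mean log2(CPM + 0.5), 2-sided, p was 0.0873 for both Prlr and Foxj1, 0.246 for Ttr, 0.262 for Kl and 0.413 for Folr1, where the smallest p that 5 against 5 allows is 0.00794. Prlr was higher in the Q175 library in 22 of 25 pairs, Foxj1 in 21, Ttr and Kl in 18 and Folr1 in 12.

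These values depended on which libraries and terms entered the fit. With sex as a term, Ttr was at 1.19 ± 7.65, Folr1 at 2.12, Kl at 1.63, Prlr at 1.44 and Foxj1 at 0.57, in a comparison of 4 females and 1 male with 1 female and 4 males. With a score of other cell types as a term, Ttr was at 7.51, Folr1 at 8.53, Kl at 6.03, Prlr at 6.36 and Foxj1 at 0.67. Foxj1 was at 0.53 without Q175 replicate 4. None of these was called. A fit without the 3 libraries highest in Ttr, added after the values were seen, is a description only, because taking them out must lower Ttr and the genes that go with it in Q175. It gave -1.35 ± 1.23 for Ttr and -0.46 ± 0.82 for Kl, and was 0.58 ± 0.78 for Prlr and 0.40 ± 0.38 for Foxj1. Folr1 no longer reached 1 CPM in any of the 8 samples left. In the choroid plexus list all 20 genes had a positive fold change with every library (median 3.39, 15 with an unadjusted p under 0.05, 0 called), against 3 of 8 testable genes without the 3 libraries (median -0.20). The rest of the 20 reached 1 CPM only in Q175 replicates 3 or 4, so their positive sign was favoured by the filter. The median of all genes was -0.02 in the full comparison. The 17 testable cilia genes (median 0.37) and 7 testable regulators of multiciliated cells (median 0.48) had 0 edgeR calls as well. DESeq2 called 1 of the 20, Msx1, a homeobox factor (2.16 ± 0.62, adjusted p = 0.0531), and 1 of 17 cilia genes, Dnaic1.

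Q175;Tyrobp-KO against Q175 asked what loss of Tyrobp did on the Q175 background. None of the transcripts was called by edgeR, with 0.0111% of 18059 genes called, nor by DESeq2, with 0.227%. The log2 fold change was -2.39 ± 1.49 for Ttr, -2.18 ± 1.32 for Folr1, -1.82 ± 1.25 for Kl, -2.69 ± 1.15 for Prlr and -0.83 ± 0.36 for Foxj1, with edgeR adjusted p-values between 0.533 and 0.550. Leaving out Q175;Tyrobp-KO replicate 11 alone gave -4.23 for Ttr, -3.53 for Folr1, -3.63 for Kl and -3.90 for Prlr. Leaving out Q175 replicate 4 gave -1.59, -1.47 and -1.20 for these, -1.36 for Prlr and -0.40 for Foxj1, and leaving out Q175 replicate 3 gave -1.42 for Folr1 and -1.07 for Kl. With the score of other cell types as a term, Ttr was at -3.62, Folr1 at -3.35, Kl at -3.11 and Prlr at -3.43, and with sex as a term Foxj1 was at -0.49. None of these was called. The same Q175 libraries serve as reference here and as the test group against WT, so the opposite signs are not independent. Without the 3 libraries the sign turned for Ttr (1.42 ± 0.56, adjusted p = 0.901) and Kl (0.71 ± 0.51), while Prlr was at -0.43 ± 0.63 and Foxj1 at -0.25 ± 0.31. In exact permutation tests over all libraries p was between 0.0952 (Foxj1) and 0.810 (Ttr).

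Tyrobp-KO against WT contained none of the 3 libraries. No transcript was called by edgeR, which called 0.0222% of 18017 genes, or by DESeq2, which called 0.932%. The log2 fold change was -2.72 ± 1.42 for Ttr, -0.87 ± 1.08 for Kl, -1.03 ± 0.81 for Prlr and 0.25 ± 0.36 for Foxj1, with edgeR adjusted p-values of 0.811, 0.999, 0.948 and 0.999. Folr1 did not reach 1 CPM. WT replicate 1 carried much of the Ttr value, which was -1.54 without it. Kl was at -1.68 without Tyrobp-KO replicate 20, -0.25 without replicate 19, and -1.95 with sex and -1.45 with the score as a term. Foxj1 ran from 0.12 without Tyrobp-KO replicate 15 to 0.47 without WT replicate 8. With 3 against 5 libraries an exact permutation test can go no lower than 0.0357, and it gave between 0.357 and 0.536 for these 5 transcripts.

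The interaction of Q175 and Tyrobp-KO, tested over all 18 libraries, called no transcript and 0% of 18613 genes by edgeR, and no transcript and 0.0107% of genes by DESeq2. There were 1118 genes with an unadjusted edgeR p under 0.05, none of them one of the 6. Its log2 value was 0.40 ± 2.21 for Ttr, -1.45 ± 2.68 for Folr1, -0.86 ± 2.04 for Kl, -1.60 ± 1.76 for Prlr and -1.01 ± 0.51 for Foxj1. The standard errors of the choroid plexus transcripts exceeded their values. Without the 3 libraries Ttr was at 4.24 ± 1.73 (adjusted p = 0.863).

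**Figure D4:**
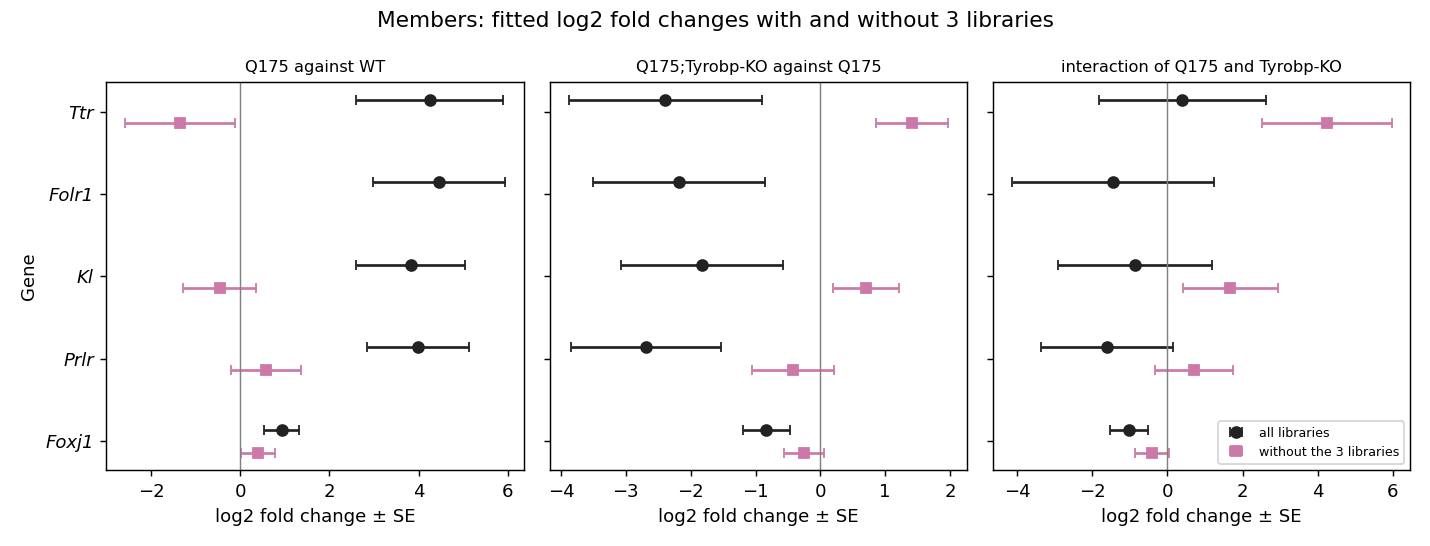
Log2 fold change ± SE (horizontal axes) from edgeR of Ttr, Folr1, Kl, Prlr and Foxj1 (rows) in Q175 against WT, in Q175;Tyrobp-KO against Q175 and in their interaction over all 4 groups. The SE was derived from the F statistic of the test. Black circles use all libraries and pink squares leave out Q175 replicates 3 and 4 and Q175;Tyrobp-KO replicate 11, where Folr1 had too few reads to be tested. Ttr in Q175 against WT moves from 4.25 to -1.35.

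Over the 15 libraries outside that cluster, Ttr and Kl still went together. Pearson's r was 0.839 (100000-resample permutation test, 2-sided, adjusted p = 0.0014 over 10 pairs) and Spearman's rho was 0.811 (adjusted p = 0.0042). It was 0.701 without the 2 libraries farthest from the median of Ttr, 0.803 for deviations from group means, and 0.553 in the 7 females and 0.874 in the 8 males. The other pairs among the choroid plexus transcripts had positive r, from 0.297 (Folr1 with Prlr) to 0.613 (Ttr with Prlr), with adjusted p-values between 0.081 and 0.417. Foxj1 had r between -0.160 and 0.290 with the other genes, with adjusted p-values of at least 0.417. No r was computed over all 18 libraries as a test, because 3 of them form a separate cluster, and none for Tmem212, which was at 0 in most libraries.

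Genes that act with these transcripts were examined next. Of the 11 genes of thyroid hormone and retinol handling, the partners of transthyretin, 9 were tested in Q175 against WT, 0 were called by edgeR and all 9 had a positive fold change (median 1.04). Crym, which binds thyroid hormone in the cytosol, had a log2 fold change of 1.78 ± 0.42, Dio2, the enzyme that activates the hormone, 2.04 ± 0.50, Slco1c1, a thyroxine transporter, 0.90 ± 0.24, and Thra, a nuclear receptor of the hormone, 0.54 ± 0.25. DESeq2 called 3 of the 9, Crym and Slco1c1 among them. This list had a median of 0.90 without the 3 libraries (8 of 9 positive) and of -0.05 with a score of other cell types as a term (4 of 9 positive), and 15 astrocyte markers, 14 of them with an unadjusted p under 0.05, moved beside it (median 1.13 in the full comparison and 1.24 without the 3 libraries, 0.30 with the score, which counts astrocyte markers). Astrocyte markers summed to between 679 and 1207 CPM in WT, 1221 and 6475 in Q175, 749 and 4529 in Tyrobp-KO and 722 and 3584 in Q175;Tyrobp-KO. They stood at 2586, 1221 and 761 CPM in the 3 libraries with the most Ttr, within the range of the others, and their part in the thyroid hormone genes was not tested.

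The lists around the other transcripts were near the median of all genes. Of 10 genes of folate uptake and use, 9 were tested in Q175 against WT and 0 were called (median -0.10). Among them were Mtr, methionine synthase, with -0.23 ± 0.18, and the proton-coupled folate transporter Slc46a1, with -0.10 ± 0.17. Of 9 genes around klotho, 7 were tested and 0 called (median 0.17), including the FGF receptors Fgfr2 (0.38 ± 0.19) and Fgfr3 (0.87 ± 0.24) and the proteases that shed klotho, Adam10 (-0.20 ± 0.24) and Adam17 (-0.42 ± 0.18). Fgf23 was found in 3 libraries and never above 0.225 CPM. All 9 genes of prolactin receptor signalling were tested and 0 called (median 0.01), among them Jak2 (-0.09 ± 0.15), Stat5a (-0.06 ± 0.24), Stat5b (-0.06 ± 0.21) and Stat3 (-0.08 ± 0.24). None of the 34 genes tested in these 4 lists was highest in the 3 libraries that were highest for Ttr.

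The same lists gave 0 edgeR calls in the other comparisons. In Q175;Tyrobp-KO against Q175 the median log2 fold change was -0.70 for thyroid hormone and retinol handling, 0.06 for folate, -0.37 for klotho and FGF receptors and 0.20 for prolactin receptor signalling, with a median of -0.05 over all genes. The choroid plexus list was at -2.11 and the cilia list at -0.82 there, with every tested gene of both below 0, and at -0.35 and -0.51 without the 3 libraries. Only 6 choroid plexus and 13 cilia genes could be tested without them. The other tested genes reached 1 CPM only in those 3 libraries, so their sign was not independent of the filter. DESeq2 called Dnah6 of the cilia list (-3.07 ± 0.83, adjusted p = 0.0989), the gene that stood out in Q175 replicate 4. In Tyrobp-KO against WT, which holds none of the 3 libraries, 8 choroid plexus genes could be tested and their median was -0.17. DESeq2 called Dio2 there (2.28 ± 0.64, adjusted p = 0.0642).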

How the data were processed

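The deposited values are counts: per the study's methods, the authors made non-directional SMART-Seq libraries, used STAR for alignment to GRCm38 and featureCounts for the number of reads on each gene, without normalisation. The submitters' processing notes name STAR, featureCounts and DESeq2, and a human build that the mouse identifiers go against. Of the table's columns, 2 match no labelled sample and entered no step. The transcripts, the lists and the tests were chosen with earlier results of these data known. Symbols and exon lengths came from GENCODE M21.

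Counts were scaled with TMM factors in edgeR 4.0.16 (R 4.3.3). Every comparison was fitted on its own samples, the interaction on all 18, over genes reaching 1 CPM in any of them. The filter at 1 CPM used CPM by total counts, without TMM factors. The test was edgeR's quasi-likelihood test at an FDR of 0.1 (Benjamini-Hochberg). It gives no SE, so the SE of edgeR values was the absolute log2 fold change divided by the square root of the F statistic. The authors' tool, DESeq2 (version 1.42.0 here), was an alternative, beside other scalings, other filters on low counts, 1 fit over all 4 groups, sex or a score of other cell types as a term, and leaving out each replicate. Fits were tested on simulated data. Permutation tests used SciPy 1.17.1 in Python 3.11.15. Libraries of a group differed by a chi-square of at least 15.4 per degree of freedom, so none was a copy. Named were the 6 transcripts, the 5 genes most like each, of every list up to 4 genes of the highest mean level and those called or without reads, and Tyrobp. Other genes named from the lists were picked after their values were seen. Single values of some listed genes are not reported here. The analysis of each library is limited by its depth, between 11260410 and 29771983 counts.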

Additional observations from a re-analysis of the deposited data

Results flagged for a closer look

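By Dixon's test at the 95% level, a library stood apart from the other 4 of its group in 6 of 17 sets of 5 values. The rate of about 1 in 20 by chance holds for independent, normally distributed sets. These sets held untransformed CPM, and those flagged were of genes that rose in the same library or were mostly at 0. The count of flags therefore cannot be set against that rate. Q175;Tyrobp-KO replicate 11 did so for Ttr (393 CPM, next 34.3), Folr1 (2.08, next 0.299), Kl (11.7, next 1.10) and Prlr (5.32, next 1.19). Tmem212 did so in Q175 replicate 14 (0.511 CPM, next 0.0426) and in WT replicate 2 (0.0671 CPM from 1 read, next 0), both values of a few reads. Q175 replicates 3 and 4, being a pair, cannot stand apart under this rule. No cause was tested.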

How the results depend on the processing

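The number of the 6 transcripts called remained 0 in every comparison under every alternative run, leave-one-out fits included (range 0 to 0), except for DESeq2 in Q175 against WT, which called 1 (Prlr, 4.04, adjusted p = 0.0627). Signs turned for Ttr, Folr1, Kl and Prlr. Without the 3 libraries highest in Ttr, Q175 against WT gave -1.35 for Ttr and -0.46 for Kl, Q175;Tyrobp-KO against Q175 gave 1.42 and 0.71, and the interaction gave 1.67 for Kl and 0.71 for Prlr. The Ttr interaction was -0.30 with sex as a term and -1.36 with a score of other cell types, and ran from -1.44 (without Q175;Tyrobp-KO replicate 11) to 1.13 (without Q175 replicate 4) when single libraries were left out, being also -0.78 without WT replicate 1 and -0.17 without Tyrobp-KO replicate 19. The Folr1 interaction ran from -2.79 to 2.02, the latter without Tyrobp-KO replicate 19, the only library of its group with Folr1 reads. The correlations past an adjusted p of 0.05 numbered 1, and 1 to 2 without single libraries. DESeq2 called 1 choroid plexus gene in place of 0. Scaling by total counts moved the median log2 fold change of all genes from -0.05 to 0.08 in Q175;Tyrobp-KO against Q175 and from 0.04 to 0.15 in the interaction. Calls over all genes were 0 by edgeR and 234 by DESeq2 in Q175 against WT. In Q175;Tyrobp-KO against Q175 they were 2 by edgeR, 41 by DESeq2, 15 in 1 fit over all groups, 9 without a filter, and 1 with sex, with the score or without the 3 libraries. In Tyrobp-KO against WT they were 4, 168 by DESeq2, 15 without a filter and 8 in 1 fit, and in the interaction 0 and 2 by DESeq2. No paired analysis was possible because the groups share no replicate numbers. The 3 libraries, few reads of Folr1 and Tmem212 and groups of 3 to 5 limit all statements.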

Other observations

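Beyond the listed genes, the 45 genes with their 3 highest levels in Q175 replicates 3 and 4 and Q175;Tyrobp-KO replicate 11 included genes of no list. Those named here were chosen after their values were seen, and no theme among them was tested. Mfrp, a frizzled-related membrane protein, was at 1.90 to 10.2 CPM in the 3 libraries and at no more than 0.225 CPM in the other 15. Lbp, the lipopolysaccharide-binding protein, was at 1.60 to 7.49 CPM against at most 0.639. Krt8, a keratin of simple epithelia, was at 0.173 to 1.58 CPM against at most 0.0597, and Wfdc2, a secreted epithelial protein, at 0.173 to 1.97 CPM with no read in the other 15. The pigment cell transporter genes Slc24a5 and Oca2 were among them as well, at 0.605 to 2.17 and 0.908 to 2.78 CPM against at most 0.136 and 0.290. Collagens Col8a1 (1.34 to 6.70 CPM, against at most 0.407) and Col8a2 (1.51 to 10.1 CPM, against at most 1.33) followed the same libraries.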
